A study of Mus musculus with 4 samples.

Results

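The checkpoint receptor PD-1 (gene Pdcd1) and its ligands PD-L1 (Cd274) and PD-L2 (Pdcd1lg2) were followed through the cells of MB49 tumours grown in male and female mice. These 3 genes were chosen by name, out of 30408 genes in the tables. MB49 is a mouse urothelial carcinoma cell line of male origin that forms tumours when implanted. Tumour tissue was digested with collagenases, DNase and dispase, live cells were sorted by flow cytometry with a CD45 antibody (CD45 is the surface protein of white blood cells), and single cells were captured with BD Rhapsody, a microwell system that tags each RNA molecule with a unique molecular identifier (UMI). One library was made from each of 4 groups, namely CD45-positive and CD45-negative cells of tumours from male mice and CD45-positive and CD45-negative cells of tumours from female mice. The sources used here name no strain, age or number of mice, so a difference between the sexes cannot be told apart from a difference between animals, tumours or libraries, and no test was made.

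PD-1 is an inhibitory receptor that T cells put on their surface after antigen stimulation and keep when stimulation persists. When it binds PD-L1 or PD-L2, its cytoplasmic tail recruits the phosphatases SHP-2 and SHP-1, and signalling from the T cell receptor and from CD28 is dampened. PD-L1 is inducible on many cell types, tumour cells included, and interferon-gamma acting through IRF1 is its best known inducer. PD-L2 is more restricted, mainly to macrophages and dendritic cells, where IL-4 acting through STAT6 is a known inducer.

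In the GRCm38 mouse genome the receptor gene lies on the reverse strand at chr1:94038305-94052553. The ligand genes are neighbours on the forward strand, Cd274 at chr19:29367455-29388095 and Pdcd1lg2 at chr19:29410919-29471161, with 22823 bases between them. The ligands' promoters are printed because these neighbouring genes behaved differently between cell types and between the libraries of the sexes. The RefSeq promoter windows of 300 bases (build GRCm38.p6, 250 bases before to 50 after the start) were chr19:29367188-29367487 for Cd274 and chr19:29410669-29410968 for Pdcd1lg2, both on the forward strand. Capitals mark matches to interferon regulatory factor, STAT6-type and NF-kB motifs on either strand.
Cd274: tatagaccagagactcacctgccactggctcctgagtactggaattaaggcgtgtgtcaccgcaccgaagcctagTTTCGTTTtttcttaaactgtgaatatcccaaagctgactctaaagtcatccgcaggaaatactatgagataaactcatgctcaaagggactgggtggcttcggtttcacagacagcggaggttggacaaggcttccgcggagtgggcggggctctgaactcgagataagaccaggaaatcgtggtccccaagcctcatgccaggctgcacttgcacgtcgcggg
Pdcd1lg2: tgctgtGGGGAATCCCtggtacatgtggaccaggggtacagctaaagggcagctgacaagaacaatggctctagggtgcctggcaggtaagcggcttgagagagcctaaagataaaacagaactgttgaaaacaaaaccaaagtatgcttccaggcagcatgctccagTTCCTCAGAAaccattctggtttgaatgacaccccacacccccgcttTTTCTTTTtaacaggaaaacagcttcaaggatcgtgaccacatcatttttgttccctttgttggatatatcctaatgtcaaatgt
In Cd274 the capitals are 1 match to the interferon regulatory factor core AANNGAAA, at -175 to -168 from the start. In Pdcd1lg2 they are an NF-kB motif at -244 to -235, a match to the STAT6-type motif (TTC and GAA with 4 bases between) at -82 to -73, and a match to AANNGAAA at -35 to -28, none of which overlap. Of 32851 RefSeq promoters of the same length, 23.9% held AANNGAAA, 6.95% held the STAT6-type motif and 5.89% held the NF-kB motif. The Pdcd1 window on the reverse strand of chromosome 1 also held AANNGAAA, at -28 to -21. A hypoxia response core, ACGTG, held by 19.6% of promoters, was found in Cd274 at 39 to 43 bases after the start and is left in lower case. Other motifs searched had no match in the 3 windows: the interferon-stimulated response element (3.44% of promoters), TGANTCA for AP-1 (7.81%) and TGACG for CREB (20.8%). A match describes letters in these windows only.

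After filters, 5379 male and 4595 female CD45-positive cells were kept, and 5496 male and 3905 female CD45-negative cells, of 22115 barcodes in all. Libraries held between 37705608 and 62273035 UMIs, and the median kept cell had 5980, 6047, 9919 and 10598.0 UMIs in the same order. The CD45 gene Ptprc matched the sort, at 742 (male) and 648 (female) UMIs per 1000000 UMIs (CPM) in CD45-positive cells, against 1.79 and 1.35 CPM in the CD45-negative ones. Cells were put in types by marker genes: a cell entered the type whose list it matched best, when at least 3 of its genes were detected (2 for NK cells). The CD45-positive cells were mostly macrophages, 2712 (50.4%) of the male and 3322 (72.3%) of the female cells. T cells numbered 892 (16.6%) and 393 (8.55%), and neutrophils 661 (12.3%) and 186 (4.05%). In the CD45-negative libraries 1931 male and 1783 female cells carried the tumour keratin list; 632 and 528 of them had just the minimum of 3 markers. Cells entering by the fibroblast or mature dendritic list in these CD45-negative libraries also carried tumour keratins and almost no Ptprc, and are not called fibroblasts or dendritic cells here.

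Levels below are CPM of the summed UMIs of a cell type in a library. Intervals are exact 95% Poisson for CPM, exact binomial (Clopper-Pearson) for shares and ratios, and they cover counting error only. Because deeper cells show a UMI more often, shares of cells with a UMI are also given after thinning cells to 1000 UMIs. Cells with fewer than 1000 UMIs are left out of these thinned shares. Ratios past 1.5-fold in either direction are counted as higher or lower, beside the share of all measured genes past the same fold.

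T cells carried the receptor. In CD8 T cells, the cytotoxic lineage, Pdcd1 stood at 484 CPM (444 to 527) in the male tumour, with 525 UMIs over 338 cells, against 217 CPM (173 to 269) in the female tumour, with 84 UMIs over 109 cells. The male level was 2.23-fold (1.77 to 2.84) the female one. A Pdcd1 UMI was seen in 50.3% (44.8 to 55.8) of male and 31.2% (22.7 to 40.8) of female CD8 T cells, and in 28.6% and 13.5% at 1000 UMIs per cell. In this comparison 13.9% of 7638 measured genes were 1.5-fold higher in male cells and 11.1% higher in female cells. Pdcd1lg2 was also past the fold here, at 63.6 CPM in male and 101 CPM in female CD8 T cells (0.630), and Cd274 was not, at 100.5 and 106 CPM. Macrophage RNA differed beside this result: 28.1% of male and 77.1% of female CD8-gated cells also met a second lineage's list, and their C1q genes, which macrophages express, summed to 845 and 1315 CPM. T cell marker UMIs are the summed UMIs of Cd3e, Cd3d, Cd3g, Trac, Trbc1 and Trbc2, which encode the T cell receptor complex. Per 100 of these, Pdcd1 had 8.26 UMIs in male cells (7.57 to 9.0) and 3.51 in female cells (2.80 to 4.35). An unsupervised cluster led by Cd8a, built without the 3 genes, gave 562 CPM in male and 214 CPM in female cells, a ratio of 2.62 (2.07 to 3.36).

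Conventional CD4 T cells, the helper lineage, did not share that direction. Their Pdcd1 level was 338 CPM (293 to 388) in the male tumour and 416.5 CPM (362 to 477) in the female tumour, a ratio of 0.812 (0.666 to 0.989), inside 1.5-fold. The counts behind it were 205 UMIs in 201 male and 208 UMIs in 130 female cells, of which 18.4% and 65.4% also met a second lineage's list. At this fold 14.4% of 6806 genes were higher in male and 11.4% higher in female CD4 T cells, and none of the 3 genes was. Regulatory T cells, the suppressive Foxp3 lineage, stood at 257 CPM (221 to 296) over 166 male cells, and 44 female cells had 7 Pdcd1 UMIs in 6 cells. The cluster led by Il2ra and Ctla4 held 256 male and 72 female cells, at 284 and 98.2 CPM, a ratio of 2.89 (1.87 to 4.69). T cells without a subset call had 366 CPM in male and 94.8 CPM in female cells, a ratio of 3.86 (2.53 to 6.16). Over all T cells the male level was 374 CPM (353 to 397) and the female level 246 CPM (221 to 274), a ratio of 1.52 (1.35 to 1.72), and leaving out cells that met 2 lineage lists brought it to 1.25 (1.01 to 1.57). Gamma-delta T cells, a small lineage with another receptor type, held 16 Pdcd1 UMIs in 17 male cells and 21 UMIs in 31 female cells. In order of level, male CD8 T cells stood above the other male subsets with no overlap of intervals, and male CD4 T cells and T cells without a subset overlapped.

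**Figure D1:**
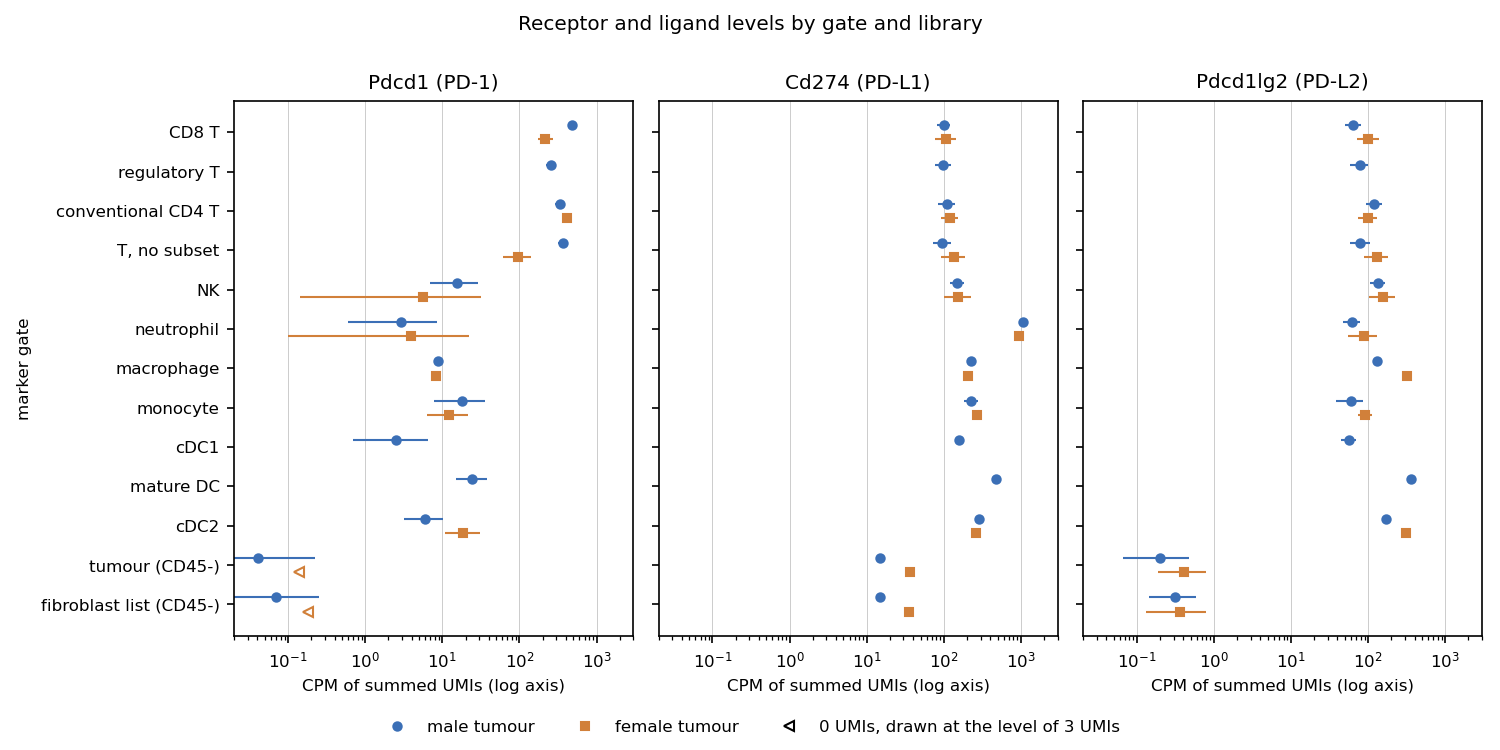
Level of Pdcd1, Cd274 and Pdcd1lg2 (CPM of summed UMIs, log axis) in each cell type, male above female, with exact 95% Poisson intervals as bars. Pdcd1 peaks in T cells at 484 CPM (male CD8) and Cd274 in neutrophils at 1069 and 951 CPM. Pdcd1lg2 peaks in male mature dendritic cells and, among the female types drawn, in macrophages.

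Pdcd1 was low in most cells outside the T cell gates. Neutrophils had 3 UMIs in 661 male and 1 UMI in 186 female cells, and NK cells 9 UMIs in 125 male and 1 UMI in 55 female cells. In the unsupervised NK cluster, of 256 male and 223 female cells, the levels were 33.8 CPM in male and 76.7 CPM in female cells. The ratio was 0.440 (0.285 to 0.671). The T cell list matched this cluster second best, and the part of T cells in it was not tested. The NK gate itself sets no order, with a ratio of 2.70 (0.374 to 118). Monocytes had 8 Pdcd1 UMIs in male and 12 in female cells. Macrophages stood at 8.76 CPM (7.72 to 9.90) in male cells and 8.23 CPM (7.27 to 9.28) in female ones. Most of those UMIs sat in cells with T cell transcripts. The 10.3% of male macrophage-gated cells with 3 or more T cell marker UMIs held 79.2% of them, and the 12.2% of such female cells held 73.5%. Macrophage-gated cells with no T cell marker UMI had 1.88 CPM in male and 2.04 CPM in female cells. Mature dendritic cells, the migratory Ccr7 state, had 24.6 CPM (15 to 37.9) over 144 male cells, from 20 UMIs in 10 cells, and 8 UMIs in 4 of 49 female cells. Those male dendritic cells held 74.1 Pdcd1 UMIs per 100 T cell marker UMIs, against 7.06 in male T cells. In type 2 dendritic cells, marked by Cd209a, the level was 6.01 CPM from 13 UMIs in male cells and 18.8 CPM from 16 UMIs in female cells. The ratio was 0.319 (0.141 to 0.708), and 14 of the 16 female UMIs were in 72 cells with no T cell marker UMI. In the CD45-negative libraries Pdcd1 had 8 UMIs among male cells and 0 among female cells.

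The CD8 T cells with a Pdcd1 UMI also differed in other genes of T cell state, most clearly in the male tumour. Of 10 exhaustion genes, which mark chronically stimulated T cells, 8 were 1.5-fold higher in the 170 male cells with Pdcd1 than in the 168 without, 0 were lower, and the list's median log2 ratio was 1.27. The background was 17.8% of 6750 genes higher and 13% lower. Rgs16, a regulator of G protein signalling, had 593 CPM in cells with and 111 CPM in cells without Pdcd1 (5.35-fold), and Lag3, another inhibitory receptor, 70.4 and 18.0 CPM (3.90-fold). The inhibitory receptor Tigit and the chemokine receptor Cxcr6 stayed within 1.5-fold, each at 1.31. Of 8 naive or stem-like genes 6 were lower in cells with Pdcd1 and 0 higher, with a median log2 ratio of -1.56. S1pr1, the receptor by which T cells leave tissue, had 58.9 CPM in cells with and 291 CPM in cells without Pdcd1 (0.202). Ccr7, which guides T cells to lymph nodes, was at 0.888. Of the PD-1 signalling genes, Ptpn6, which encodes SHP-1, was 1.71-fold higher, 1 of the 8 was lower, and the rest were within 1.5-fold. Cells with Pdcd1 were deeper, with medians of 3009.5 and 1830.0 UMIs; the part of depth in these differences was not tested.

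In the female tumour, 34 CD8 T cells with and 75 without Pdcd1 gave a mixed picture for exhaustion genes and the same side for naive genes. Here 2 of 8 exhaustion genes were higher in cells with Pdcd1 and 2 lower, with 13.9% of 3783 genes higher and 14.4% lower in the background. Rgs16 was at 1.92 and the inhibitory receptor Ctla4 at 1.72, while Tigit was at 0.634 and the ectonucleotidase gene Entpd1 at 0.613. Of 5 naive genes, 4 were lower, with S1pr1 at 0.590 and the stem-like transcription factor Tcf7 at 0.50. In conventional CD4 T cells with Pdcd1, 6 of 8 naive genes were lower and 1 higher in male cells (18.1% of 5022 genes lower), and 3 of 7 were lower and 1 higher in female cells (13.7% of 4368 genes lower). Higher on that side were 4 of 10 exhaustion genes in male cells (background 20.3%) and 4 of 9 in female cells (15.5%). Tox, a transcription factor of exhausted and follicular helper T cells, had 121 CPM in male CD4 T cells with and 12.7 CPM in those without Pdcd1 (9.54-fold). Ccr7 was the naive gene on the higher side in both libraries, at 2.43 in male and 2.97 in female CD4 T cells, and it is also a gene of the mature dendritic cell list. Whether the male and female splits differ was not tested.

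**Figure D2:**
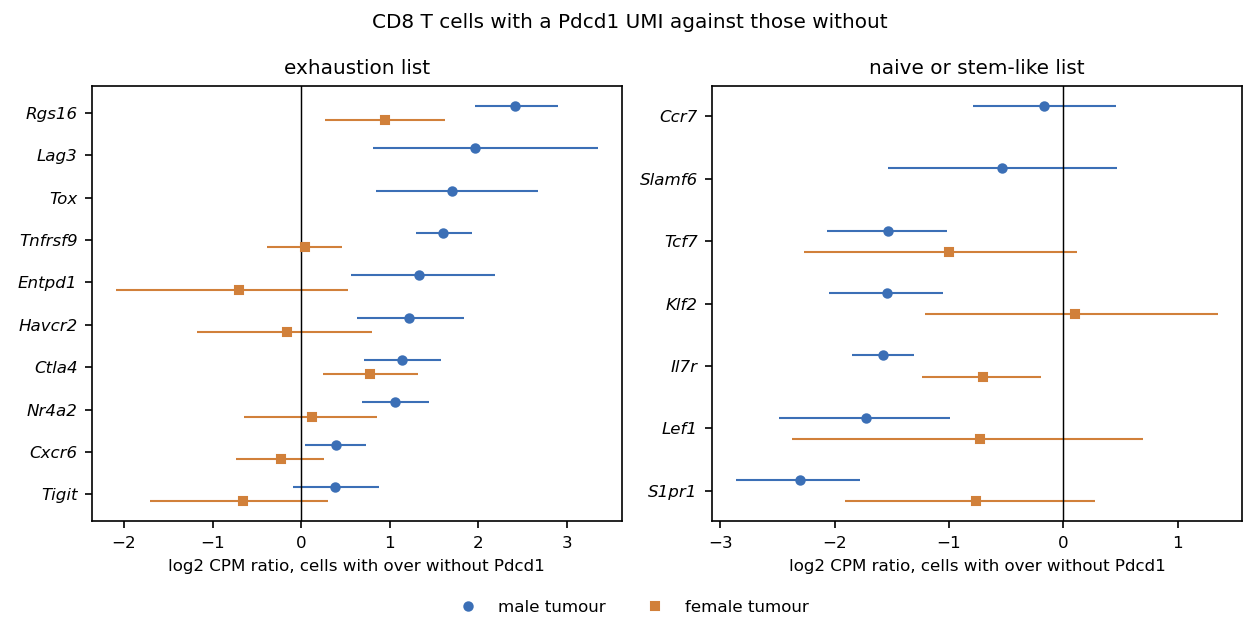
Log2 ratio of the exhaustion genes and of 7 naive or stem-like genes in CD8 T cells with a Pdcd1 UMI over those without, male above female, genes with at least 20 UMIs, bars exact 95% intervals. Male cells with Pdcd1 had 8 of 10 exhaustion genes past 1.5-fold, and S1pr1 of the naive list stood at 0.202.

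Between the sexes, CD8 T cells differed in some of the same genes. Of 10 exhaustion genes, 3 were 1.5-fold higher in male CD8 T cells and 0 in female ones (median log2 ratio 0.36, all genes 0.02), where 13.9% and 11.1% of all genes passed the fold. Tox stood at 82.1 CPM in male and 18.1 CPM in female cells, the female level from 7 UMIs, and Rgs16 was at 2.06. The chemokine receptor Ccr7 (3.8) and the quiescence factor Klf2 (2.09) of the naive list were also higher in male cells, 2 of 8 in all. Ifng, which encodes the interferon that induces PD-L1, went the other way, at 50.7 CPM in male and 150.1 CPM in female CD8 T cells (0.338). Of the PD-1 signalling genes, Cd28, the costimulatory receptor that PD-1 acts on (0.611), and Pag1, an adaptor for the inhibitory kinase Csk (0.530), were lower in male cells, 2 of 8. These are small counts beside the shares of all genes.

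PD-L1 was led by neutrophils. Cd274 stood at 1069 CPM (1007 to 1134) in 661 male neutrophils and 951 CPM (834 to 1079) in 186 female ones, a ratio of 1.12 (0.977 to 1.30). A UMI was seen in 51.3% of male and 53.8% of female neutrophils, and in 45.8% and 46.0% at 1000 UMIs per cell, above every other cell type at that depth. Neutrophils with fewer than 1000 UMIs are not part of those thinned shares. Neutrophils hold little RNA, with medians of 1253 and 1188.5 UMIs, so this high level came from 1.66 Cd274 UMIs per male and 1.29 per female cell. Mature dendritic cells followed, with 481.5 CPM (435 to 532) in male cells and 152 UMIs in 37 of 49 female cells. Their cluster gave 498 CPM in male and 477 CPM in female cells. Type 2 dendritic cells had 288 CPM (265 to 311) in male and 266 CPM (232 to 303) in female cells.

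Macrophages had a lower level than neutrophils but more Cd274 UMIs per cell than they did. Their level was 224 CPM (219 to 230) in male and 207 CPM (202 to 212) in female cells, a ratio of 1.08 (1.05 to 1.12), with 2.41 UMIs per male and 2.0 per female cell. Monocytes, the blood-derived precursors of macrophages, stood at 228 CPM (186 to 277) in male and 272 CPM (240 to 307) in female cells. Type 1 dendritic cells, which cross-present antigen, had 160 CPM over 157 male cells, and 9 female cells held 32 UMIs. NK cells had 150.1 CPM in male and 154 CPM in female cells, and all T cells 102 and 128 CPM. The part of RNA from other cells in these T and NK cell levels was not tested. At 1000 UMIs per cell a Cd274 UMI was seen in 10.6% of male and 11.0% of female T cells, against 18.7% and 18.5% of macrophages.

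Macrophage clusters differed among themselves. The cluster led by the collagenase gene Mmp13 and the arginine transporter gene Slc7a2 had the highest Cd274 level of 5 macrophage-rich clusters, at 411 CPM in male and 248 CPM in female cells, a ratio of 1.66. The cluster led by Cx3cr1 and Fcrls, genes of resident-like macrophages, had 188 CPM in male and 112 CPM in female cells, a ratio of 1.68. The clusters led by Chil3 and Arg1 (no cell type name, 1.00), by Ctsk and Hspa1a (0.979) and by Retnla and Ear2 (1.18) were within 1.5-fold. Interferon-gamma targets moved with Cd274 among macrophages. Macrophages were sorted into 4 bins of like size by the summed share of 15 interferon-gamma targets. The Cd274 level from the lowest to the highest bin was 173, 216, 217 and 284 CPM in male cells and 171, 169, 192 and 292 CPM in female cells. The highest bin was 1.64-fold (1.53 to 1.77) the lowest in male and 1.70-fold (1.58 to 1.83) in female cells. In neutrophils the bins ran 1085, 802, 845 and 1617 CPM in male cells and 1034, 640, 1044 and 1138 CPM in female cells. The highest was 1.49-fold (1.26 to 1.77) the lowest in male and 1.10-fold (0.770 to 1.58) in female neutrophils, and the lowest bin there held cells with no target UMI.

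Tumour cells carried little PD-L1 per cell, and more of it in the female tumour. Cd274 stood at 14.7 CPM (13.2 to 16.3) in male tumour cells, with 363 UMIs over 1931 cells, against 36.7 CPM (34.2 to 39.3) in female tumour cells, with 803 UMIs over 1783 cells. The male level was 0.401 of the female one (0.353 to 0.455), so the female level was 2.49-fold higher (2.20 to 2.83). A UMI was seen in 9.84% of male and 17.7% of female cells, and in 1.46% and 2.95% at 1000 UMIs per cell. The 1.5-fold background in tumour cells was 10.0% of 14555 genes higher in male and 9.22% higher in female cells. Ptprc stood at 0.0811 CPM in male and 0.137 CPM in female tumour cells. S100a8 and S100a9, of the neutrophil list, summed to 6.20 CPM in male and 11.2 CPM in female tumour cells. C1q genes summed to 2.47 and 2.42 CPM. The part of white blood cell RNA in this result was not tested. Cells that entered by the fibroblast list gave 14.8 CPM in male and 35.0 CPM in female cells, and all CD45-negative cells 15.9 and 36.8 CPM.

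In tumour cells PD-L1 was concentrated in the interferon-high ones. In 4 such bins of tumour cells, Cd274 stood at 5.22, 4.15, 8.69 and 41.4 CPM from the lowest to the highest in male tumour cells, and at 7.16, 10.8, 18.9 and 109 CPM in female ones. The highest bin was 7.94-fold (5.42 to 12) above the lowest in male and 15.2-fold (10.9 to 21.9) in female cells. The median target sum in the highest bin was 3092 CPM in male and 4005 CPM in female cells. The cluster led by the interferon-induced genes Ifit3 and Ifit1 had the highest level, 93.8 CPM in 146 male cells and 174.6 CPM in 247 female cells (ratio 0.537). Other tumour clusters split: the one led by Akr1c18, Ero1l and Adm had 8.59 CPM in male and 32.3 CPM in female cells (0.266) and the cycling one 10.4 and 24.3 CPM (0.428), while the one led by Orm1 and Enpp2 had 25.8 and 25.4 CPM (1.02).

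**Figure D3:**
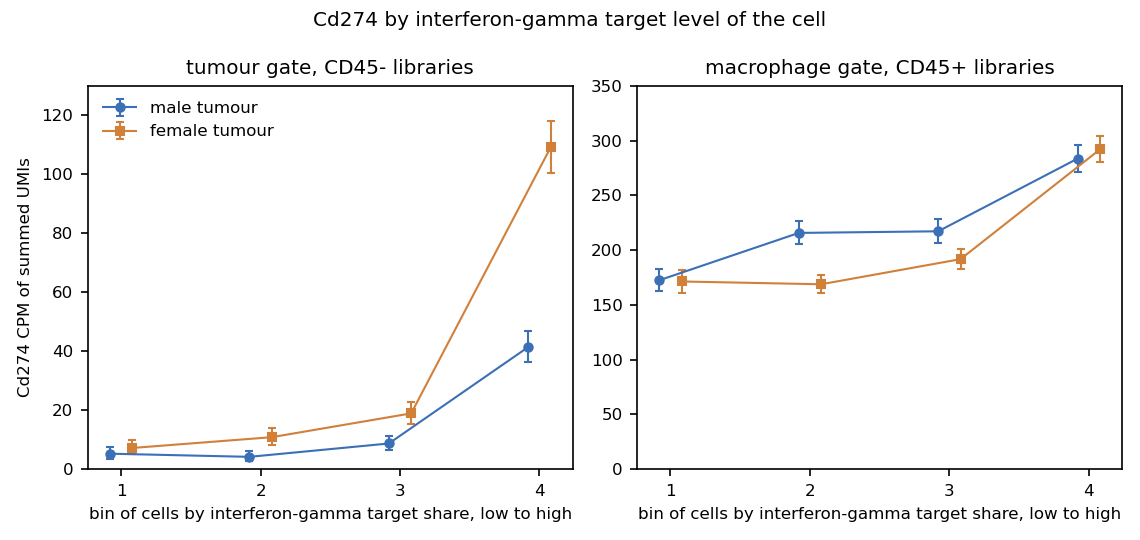
Cd274 level (CPM, linear axes from 0) in bins of tumour cells and macrophages ordered by the sum of 15 interferon-gamma target genes, male left of female, bars exact 95% Poisson intervals. In tumour cells the highest bin stands at 41.4 (male) and 109 CPM (female), with the lower bins at or under 18.9 CPM.

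Some genes of the interferon-gamma programme were also lower in male tumour cells. Of 15 targets, 0 were 1.5-fold higher in male and 3 in female tumour cells, with a median log2 ratio of -0.37 beside 0.01 over all genes. The immunity-related GTPases Iigp1 (0.622) and Irgm1 (0.631) were the lowest, with the chemokine Cxcl10 (1.07) and the class I transactivator Nlrc5 (1.11) at the other end. Irf1, the transcription factor that acts at the Cd274 promoter, had 93.5 CPM in male and 141.5 CPM in female tumour cells (0.661). Tumour cells of the sexes lay in different clusters: that led by Akr1c18, Ero1l and Adm held 597 male and 1672 female cells, and that led by Orm1 and Enpp2 held 1514 and 162. Of 8 hypoxia genes, 4 were higher in female cells and 0 in male ones, Adm with 107 CPM in male and 211 CPM in female cells (0.507) and Ero1l with 1021 and 1857 CPM (0.550). Cd80, which binds PD-L1 on the same membrane, stood at 4.90 CPM in male and 15.5 CPM in female tumour cells (0.317). Of 8 genes that handle PD-L1 protein, such as Cmtm6, which keeps it at the surface, none passed 1.5-fold in tumour cells (Cmtm6 at 36.7 CPM in male and 41.7 CPM in female cells) or in macrophages.

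Most PD-L2 UMIs of the CD45-positive libraries lay in macrophages, and the macrophage level was lower in the male tumour. Macrophages had 130 CPM (126 to 134) in male cells, with 3773 UMIs, against 317 CPM (310 to 323) in female cells, with 10155 UMIs. The male level was 0.409 of the female one (0.394 to 0.425), so the female level was 2.44-fold higher (2.35 to 2.54). A UMI was seen in 47.0% of male and 67.8% of female macrophages, and in 10.1% (8.92 to 11.3) and 23.5% (22.0 to 25.1) at 1000 UMIs per cell. Of the 3 genes, Pdcd1lg2 was past 1.5-fold and the other two were not, beside 10.4% of 15381 genes higher in male and 8.29% higher in female macrophages. The female level was higher in every one of 5 macrophage-rich clusters. It was 1.68-fold in the Mmp13 and Slc7a2 cluster (224 CPM in male and 377 CPM in female cells), the lowest. It was 2.72-fold in the Chil3 and Arg1 cluster (91.4 and 249 CPM), the highest. The Chil3 and Arg1 cluster has no cell type name, and genes of the monocyte list are among its leading genes. Chil3 and Arg1 are also among the leading genes of the Mmp13 and Slc7a2 cluster. Within each library the Mmp13 and Slc7a2 cluster had the highest level of the 5, ahead of the Retnla and Ear2 cluster at 166 CPM in male and 348.5 CPM in female cells. The Ctsk and Hspa1a cluster was shallow, with a median of 781 UMIs per cell. Its levels came from 46 male and 163 female Pdcd1lg2 UMIs.

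**Figure D4:**
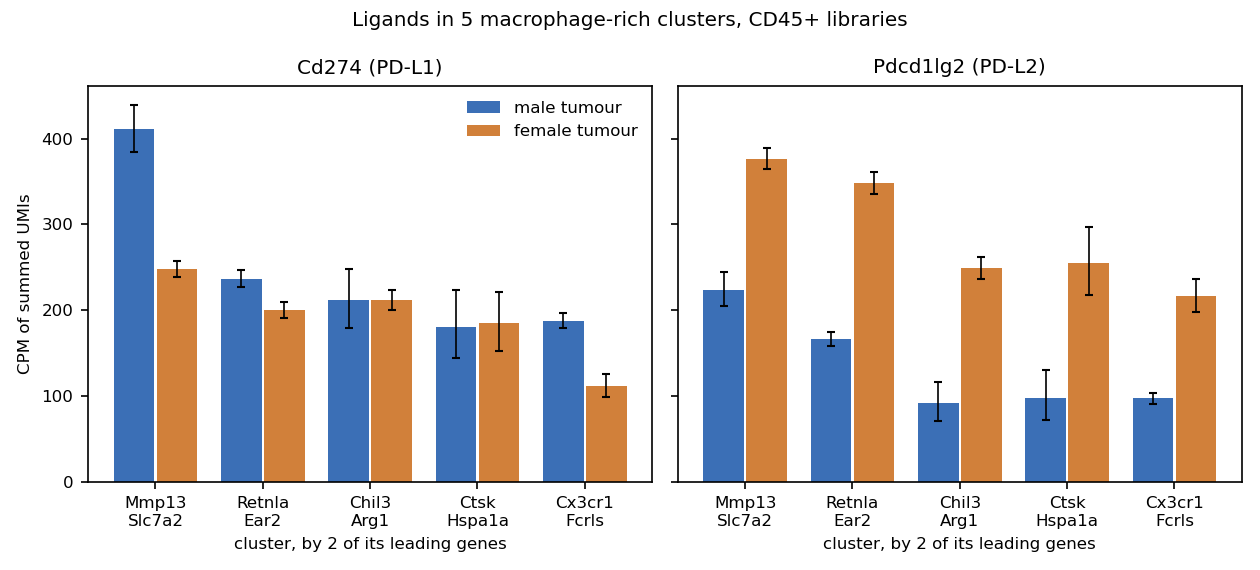
Cd274 and Pdcd1lg2 levels (CPM, linear axis from 0) in 5 macrophage-rich clusters, male left of female, bars exact 95% Poisson intervals. Pdcd1lg2 is higher in female cells in all 5, by 1.68-fold to 2.72-fold, while the Cd274 ratio of male to female runs between 0.979 and 1.68. The Ctsk and Hspa1a cluster is shallow, with a median of 781 UMIs per cell.

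Type 2 dendritic cells had the same direction, with 170.1 CPM (153 to 188) in male and 313 CPM (276 to 353) in female cells, a ratio of 0.544 (0.463 to 0.639). Macrophage RNA moved with this result: C1q genes summed to 530 CPM in male and 1502 CPM in female cells, and 72.1% and 95.3% of the cells also met a second lineage's list. Per 100 C1q UMIs there were 32.1 Pdcd1lg2 UMIs in male cells (28.9 to 35.5) and 20.8 in female cells (18.4 to 23.5). This count also falls when C1q rises, so its order is not an order of Pdcd1lg2 levels. In macrophages the same count was lower, at 1.26 in male and 3.58 in female cells. The part of macrophage RNA in the type 2 dendritic cell levels was not tested. In type 2 dendritic cells Pdcd1 and Pdcd1lg2 were higher in female cells, beside 15.7% of 8651 genes higher in female and 11.9% higher in male cells. Mature dendritic cells held the highest male level, 355 CPM (315 to 398), and 127 UMIs in 34 of 49 female cells. Their cluster had 351 CPM in male and 490 CPM in female cells, a ratio of 0.717 (0.616 to 0.836); in the gate, C1q genes summed to 414 CPM in male and 930 CPM in female cells, and their part in the result was not tested. T cells served as a level to compare with, and whether they make PD-L2 was not tested. At 1000 UMIs per cell a Pdcd1lg2 UMI was seen in 6.53% of male and 7.78% of female T cells. Male neutrophils (5.52%), monocytes (5.94% in male and 7.39% in female cells) and male type 1 dendritic cells (2.56%) were at or below the T cell share. Neither expression nor its absence is read from them. Female neutrophils were at 11.1% (6.21 to 17.9), which overlaps the female T cell interval. T cells also held C1q genes, at 737 CPM in male and 1454 CPM in female cells, so they are not free of macrophage RNA. Per 100 C1q UMIs they had 11.0 Pdcd1lg2 UMIs in male and 8.32 in female cells, above the macrophage counts. The source of these UMIs was not tested. In level, T cells stood at 80.9 CPM in male and 121 CPM in female cells, neutrophils at 61.2 and 87.2 CPM, monocytes at 59.3 and 90.9 CPM, and male type 1 dendritic cells at 55.9 CPM. NK cells had 133 CPM in male and 154 CPM in female cells, the male level near the 130 CPM of male macrophages. Per 100 C1q UMIs, NK cells had 31.3 Pdcd1lg2 UMIs in male and 13.4 in female cells, and their source was not tested. Tumour cells had 5 Pdcd1lg2 UMIs in 1931 male cells and 9 UMIs in 1783 female cells, 0.203 and 0.411 CPM. Of all Pdcd1lg2 UMIs in the CD45-negative libraries, macrophage-gated cells held 14 of 36 male and 58 of 75 female UMIs.

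Genes of the IL-4 and STAT6 route moved with Pdcd1lg2 among macrophages. Cells with a Pdcd1lg2 UMI had 4 of 9 such genes 1.5-fold higher in both libraries, beside a background of 4.07% of 13712 genes in male and 6.14% of 13851 genes in female cells. Those genes were the chemokines Ccl17 (4.73 in male and 2.76 in female cells) and Ccl22 (3.56 and 1.62), the lectin Mgl2 (1.53 and 1.74) and the arginase gene Arg1 (2.05 and 1.53). Ccl22 is also a gene of the mature dendritic cell list, and Ccl17 is among the leading genes of the Cd209a cluster. A second lineage's list was met by 36.0% of male and 48.1% of female macrophage-gated cells. The part of dendritic cell RNA in this split was not tested. Chil3, a chitinase-like protein, was lower in male cells with Pdcd1lg2 (0.422), where 12.8% of genes were lower, and the NF-kB regulator Nfkbiz was lower in female ones (0.425), where 14.3% were. Cells with a Cd274 UMI had interferon-gamma targets higher, 2 of 15 in male cells (background 4.65% higher, 12.9% lower) and 5 of 15 in female cells (4.57% higher, 7.97% lower). In male cells with Cd274, 4 of 9 IL-4 and STAT6 genes were also higher and 0 lower, with a median log2 ratio of 0.49 beside 0.14 in the Pdcd1lg2 split, and in female cells 1 of 9 was higher. Cxcl10 was at 2.64 and 1.8 and Iigp1 at 1.69 and 2.19 in male and female cells. Cells with either ligand were deeper, with medians for Pdcd1lg2 of 12852.5 and 8224.0 UMIs in male and 11231 and 3366 UMIs in female cells, and the part of depth was not tested.

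Between the sexes, the same lists split in macrophages, whose cells also lay in different clusters. The Chil3 and Arg1 cluster held 149 male and 975 female cells, the Mmp13 and Slc7a2 cluster 197 and 826, and the Cx3cr1 and Fcrls cluster 801 and 187. Of 9 IL-4 and STAT6 genes, 0 were higher in male and 3 in female macrophages, Chil3 with 39.7 CPM in male and 599.5 CPM in female cells (0.0662), Arg1 with 614 and 3202 CPM (0.192) and the mannose receptor Mrc1, itself a marker used for the gate (0.637). Ccl22 (1.43) and Ccl17 (1.19) of this list were inside 1.5-fold. The background shares for macrophages, given above, were 10.4% and 8.29%. Of 15 interferon-gamma targets, 6 were higher in male macrophages and 1 in female ones, the T cell-attracting chemokine Cxcl9 at 1588 CPM in male and 613 CPM in female cells (2.59) and Cxcl10 at 2.33, with the feedback inhibitor Socs1 at 0.571. Of 9 NF-kB targets, 4 were higher in male and 0 in female macrophages, led by Nfkbiz (2.37) and the survival gene Birc3 (1.71). Other myeloid cells did not show the same pattern of interferon-gamma targets. In monocytes 0 of 15 were higher in male and 8 in female cells, beside 11.5% and 13.8% of 6673 genes, and in neutrophils 2 of 14 and 4 of 14, beside 19.1% and 15.1% of 5529 genes. In type 2 dendritic cells, where the shares were 11.9% and 15.7%, 1 of 15 was higher in male and 2 in female cells. There 4 of 9 NF-kB targets were higher in male cells, and 4 of 9 IL-4 and STAT6 genes were higher in female cells with 1 higher in male cells.

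Set side by side, T cells held the largest share of the receptor's UMIs and macrophages the largest share of each ligand's. Cells with UMIs of the receptor and of a ligand were also found. The part of doublets (cells captured together) among them was not tested. T cells held 74.9% of the Pdcd1 UMIs of the male CD45-positive library and 45.9% of those of the female one, where macrophage-gated cells held 16.6% and 35.2%. Macrophages held 67.4% of Cd274 UMIs in male and 83.5% in female cells, and neutrophils 11.4% and 3.02%. For Pdcd1lg2 the macrophage share was 74.6% in male and 91.0% in female cells. Over whole CD45-positive libraries, which also weigh cell numbers, Pdcd1 stood at 38.2 CPM in male and 20.03 CPM in female cells, Cd274 at 240 and 213 CPM, and Pdcd1lg2 at 125 and 298.5 CPM.

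**Figure D5:**
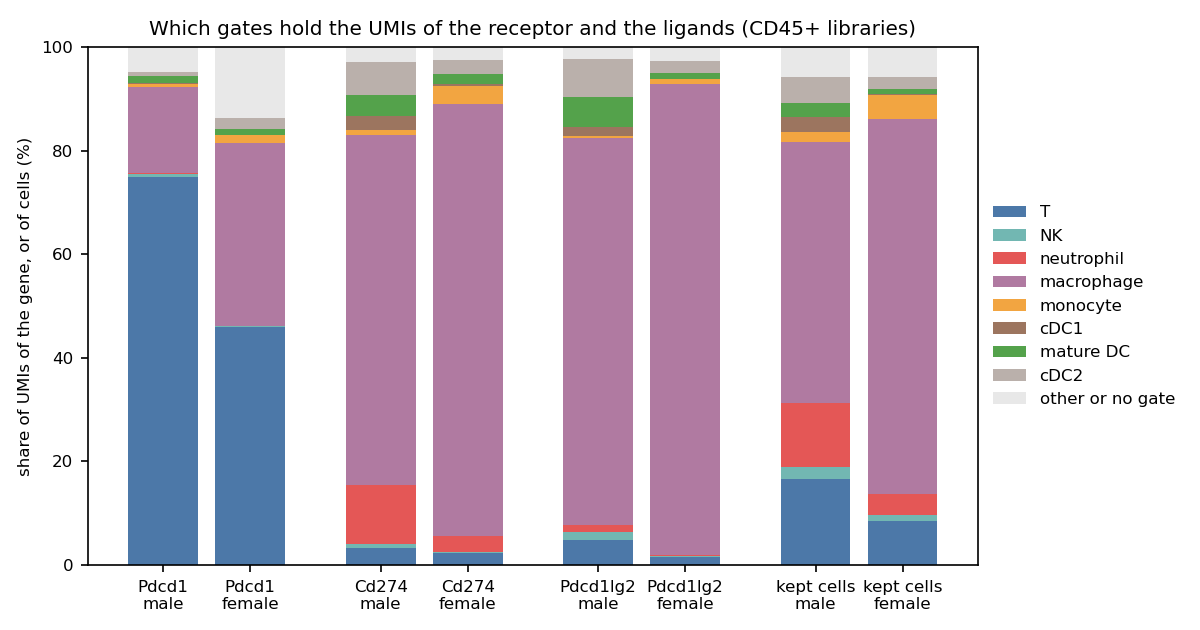
Share (percent) of each gene's UMIs in the CD45-positive libraries that falls in each cell type, beside the share of kept cells, male left of female. T cells hold 74.9% (male) and 45.9% (female) of Pdcd1 UMIs, and macrophages most of the UMIs of both ligands.

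The ligands were often found in the same macrophage. Both were detected in 38.3% of male and 49.4% of female macrophages, where the product of the single shares is 31.6% and 42.7%, and cells share depth in this count. Cells with at least 1 ligand UMI made up 75.9% of male and 81.4% of female macrophages, against 18.2% of female tumour cells. The number of Cd274 UMIs per Pdcd1lg2 UMI, a ratio of tallies and not of levels, was 1.73 in male and 0.653 in female macrophages, 1.69 and 0.850 in type 2 dendritic cells, and 17.5 and 10.9 in neutrophils. Among T cells, a ligand UMI was present in 40.7% of male cells with Pdcd1 and 34.8% of those without, and in 52.2% and 43.2% of female ones. Over all kept CD45-positive cells, 309 of 585 male cells with Pdcd1 (52.8%) and 253 of 345 female ones (73.3%) also held a ligand UMI, against 65.6% and 74.4% of the cells without Pdcd1. Of the cells with both, 102 male and 131 female ones were macrophage-gated. In that gate most Pdcd1 UMIs sat in cells with 3 or more T cell marker UMIs. A cluster with no cell type name, with Trac and Trbc2 among its leading genes, held 255 male and 202 female Pdcd1 UMIs. Its median cell had 12596 UMIs. The part of doublets in these counts was not tested.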

How the data were processed

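The deposited files hold whole UMI counts per gene and cell for 4 libraries, 1 per group, as the authors made them; per the submitters' processing notes CASAVA 1.8, UMI-tools and Seurat were used with the mm10 build, and the sources used here name no aligner. Cells with at least 500 UMIs, 250 genes and at most 25% mitochondrial UMIs were kept. Types were assigned by marker lists. No doublet caller was run, and cells meeting 2 lists were kept. Clusters used 2000 genes, 30 components, 15 neighbours and resolution 1 (scanpy 1.11.5, leidenalg 0.10.2, igraph 0.11.9). Other steps used Python 3.11.15, numpy 2.4.6, scipy 1.17.1, pandas 2.3.3 and matplotlib 3.10.9. Only the ratios and their intervals were checked on simulated data, for macrophages and CD8 T cells. List genes needed 20 UMIs in the 2 groups together. Named were the 3 genes throughout, up to 4 genes per list (the 2 highest and 2 lowest ratios), and the 5 genes most correlated with each member. List genes named outside this rule (Mgl2, Arg1, Mrc1 and Cmtm6) were chosen after their values were seen, as were the splits by T cell marker UMIs. Some list genes are counted but not reported by name here. The members and lists were chosen with earlier results of these data known. The alternatives were other UMI and mitochondrial minimums, clusters, stricter gates, gates without cells of 2 lineages, means of cell CPM, and a minimum of 100 UMIs per list gene. With 1 library per group, no test was run.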

Additional observations from a re-analysis of the deposited data

Results flagged for a closer look

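The male to female ratio of Pdcd1 pointed in opposite directions between gates. It was 2.23 in CD8 T cells and 3.86 in T cells without a subset call, and 0.319 in type 2 dendritic cells, the last from 13 male and 16 female UMIs. The difference between these gates was not tested.

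Barcodes removed by the filters, 392 in the male and 574 in the female CD45-positive library, still held ligand UMIs. Cd274 stood at 149.7 CPM in male barcodes and 146.5 CPM in female ones, from 49 and 47 UMIs, and Pdcd1lg2 at 39.7 and 165 CPM, from 13 and 53 UMIs. A count of 0 would allow 9.16 and 9.35 CPM there.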

How the results depend on the processing

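No paired analysis was possible because each group is 1 library. Of 134 recomputed male to female ratios 120 moved by less than their counting interval, 14 moved, and none turned direction past it. For the main ratios that moved, a stricter gate took Cd274 in neutrophils to 1.30 (1.12 to 1.52), leaving out cells of 2 lineages took Pdcd1lg2 in macrophages to 0.370 (0.350 to 0.390), and a mean of cell CPM took Cd274 in tumour cells to 0.456; the cause was not tested. Levels moved in 37 of 164 recomputations, 15 of them without cells of 2 lineages, and shares of cells in 86 of 205, 41 of them by thinning. Without cells of 2 lineages Pdcd1 in macrophages was 2.57 CPM in male and 2.37 CPM in female cells. Of 94 recomputed list counts 75 kept within 1.5 times and 19 did not, all with a minimum of 100 UMIs per gene, which leaves fewer genes. Pdcd1 in CD8 T cells without cells of 2 lineages has no ratio, as 25 female cells remained, and neutrophils of at least 2000 UMIs have none either. Depth limits the female T cell and dendritic cell subsets most, with 44 regulatory T cells and 49 mature dendritic cells.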

Other observations

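Over 25 combinations of cell type and library with at least 50 cells, the genes whose log2(CPM + 10) ran closest to Pdcd1 were Cd3g, Cd6, Fam169b, Cd3d and Klk8, with Pearson correlations of 0.95 to 0.96. Closest to Cd274 were Marcksl1, Plek, Il1b, Ncf1 and Il10ra (0.93 to 0.97), and to Pdcd1lg2 St8sia4, Pik3r5, Wipf1, Nckap1l and Gnpda1 (0.94 to 0.96). The ligands correlated at 0.756 with each other, and Pdcd1 at 0.0489 with Cd274 and 0.396 with Pdcd1lg2. Points from one library share its depth and free RNA, so these values describe the 4 libraries only. Cd80, a further partner of PD-L1, stood at 332 CPM in male and 345 CPM in female neutrophils, beside their high Cd274.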
